A study of Homo sapiens with 8 samples.

Results

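The 47 genes described here encode lysosomal hydrolases, lysosomal membrane proteins, subunits of the lysosomal proton pump (V-ATPase) and the transcription factors TFEB and TFE3. They were taken by gene symbol from a list drawn up with earlier results of these data known, with no threshold on their values, and all 47 are among the 26364 symbols of the expression table. They comprise 10 cathepsins and other proteases, 11 glycosidases, 3 sulfatases, 6 lipid hydrolases and activator proteins, 2 cholesterol transfer proteins, 6 membrane proteins, progranulin, 2 transcription factors and 6 V-ATPase genes. All but LGMN, the asparaginyl endopeptidase legumain, had 2 or more libraries at 1 TPM or higher and entered the test. LGMN was between 0 and 0.656 TPM in the 8 libraries and is left out of every count below.

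MV4-11 is a human acute myeloid leukemia (AML) cell line that carries FLT3-ITD, an internal tandem duplication in a receptor kinase, and the MLL-AF4 fusion, so all 4 groups share this genotype. RNA was sequenced from 2 libraries each of DMSO-treated cells, cells given TCP (tranylcypromine, an inhibitor of the histone demethylase LSD1) at 5 μM, cells given palbociclib (an inhibitor of the cell cycle kinases CDK4 and CDK6) at 0.5 μM, and cells given both molecules at the same doses, here called the combination. The labels give 4 days of treatment, whereas the study's methods describe 1 day of the CDK6 inhibitor alone followed by 3 days with both molecules. The methods also place AML lines on HS-5 stromal cells, which the labels do not mention. Every library comes from this single cell line. Nothing states that the 2 libraries of a group came from separate cultures, so p-values measure only the spread between these libraries.

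Lysosomes are acidic organelles in which soluble hydrolases cut proteins, glycans and lipids. The V-ATPase pumps protons into the lumen, and glycosylated membrane proteins such as LAMP1 line its limiting membrane. Most soluble hydrolases are sorted there by a mannose 6-phosphate tag. Many genes of this system carry a palindromic E-box, known as the CLEAR motif, in their promoters, to which TFEB and TFE3 bind, and monocytes and macrophages are rich in lysosomes.

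Values are TPM, counts of reads per gene divided by gene length and scaled to the same total in each library, so they can be compared between genes, while the sequencing depth is unknown. Each log2 fold change below is a difference of log2(TPM + 1) values, which makes the change of genes at a low level look smaller. A gene was said to rise or fall when its adjusted p in limma was below 0.05 over the 14151 genes tested, and to be a differentially expressed gene (DEG) when it was below 0.01 with a log2 fold change of at least 1 in either direction. Taken gene by gene, the design is too small for a permutation test, whose exact two-sided p has a minimum of 0.333 for groups of 2. All comparisons with DMSO share the same 2 DMSO libraries.

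Before the results, 1 library has to be set apart. The summed level of 16 stromal fibroblast markers was 181 TPM in palbociclib replicate 2 and 36.5 TPM in palbociclib replicate 1. It was 25.3 and 38.3 TPM in DMSO, 37.7 and 43.3 TPM under TCP and 52.0 and 69.4 TPM in the combination. Both combination libraries thus lay above every DMSO and TCP library. Of the 9 stromal markers tested, 1 rose in the combination, where 15.9% of all genes rose. Their median log2 fold change there was 0.82. COL1A1, a fibrillar collagen chain, was at 22.2 TPM in palbociclib replicate 2 and at 3.78 TPM or below in the others, whereas POSTN was at 0 in all 8. For several members, though not for all that moved, values are therefore given with and without palbociclib replicate 2. The part of stromal RNA in the members, under palbociclib or in the combination, was not tested. Markers of the labelled myeloid AML cells were detected in every library, at a summed 1111 to 1587 TPM in DMSO, 1547 to 2474 TPM under TCP, 17714 to 20295 TPM under palbociclib and 28202 to 30289 TPM in the combination, most of it LYZ. Of these 10 markers, 8 rose and 1 fell under palbociclib, where 14.8% of all genes rose and 30.2% fell. In the combination 9 rose and 1 fell, where 15.9% rose and 37.6% fell. The lowest log2 fold changes were -1.52 under palbociclib and -1.71 in the combination. Of 8 lymphoid and erythroid markers, 5 stayed below 0.05 TPM in every library. Within each group the replicates correlated across genes at a Pearson's r from 0.983 to 0.991. In bulk RNA, fewer cells of a type and less RNA per cell cannot be told apart.

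Most of the 47 genes were higher with palbociclib, alone or with TCP, and TCP alone left them near the DMSO level. Under palbociclib, 37 of 46 tested members rose and none fell, where 14.8% of all genes tested rose and 30.2% fell. In the combination 36 rose and none fell, where 15.9% of all genes rose and 37.6% fell. Under TCP no member passed the limma test in either direction, where 0.29% of all genes rose and 0.141% fell, and 4 members had an unadjusted p below 0.05, as did 8.77% of all genes. The median log2 fold change of the members was 0.89 under palbociclib, 1.02 in the combination and 0.02 under TCP. Over all genes tested the same medians were -0.16, -0.22 and -0.04. By the stricter DEG rule, 21 members were higher under palbociclib, where 4.54% of all genes were, and 25 in the combination, where 5.87% of all genes were. Between the treatments, 34 members rose under both palbociclib and the combination. The 3 that passed under palbociclib only were GUSB, NPC2 and LAMP2, and the 2 that passed in the combination only were CTSH and CTSS.

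**Figure D1:**
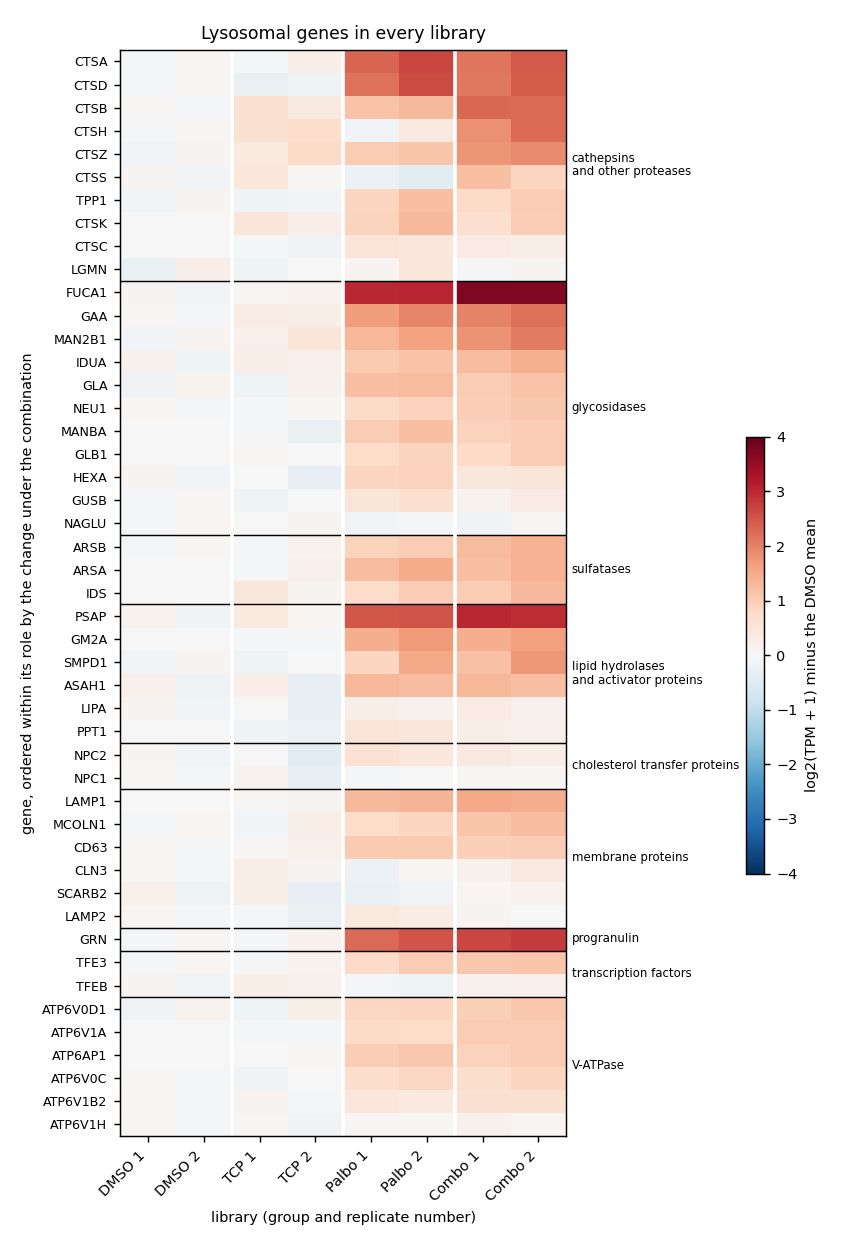
Each row is 1 of the 47 genes and each column 1 of the 8 libraries (Palbo, palbociclib; Combo, combination), and the color gives log2(TPM + 1) minus the mean of the 2 DMSO libraries, from blue (lower) to red (higher). The 4 libraries with palbociclib are red in most rows, deepest for FUCA1, PSAP, GRN, CTSA and CTSD, while CTSH and CTSS are red mainly in the 2 combination libraries.

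The count of members that rose depends on how the libraries are scaled. With each library divided by its median ratio to the other libraries, the median of all genes moved up by 0.22 log2 units in the combination and by 0.16 under palbociclib. On that scale 43 members rose in the combination, where 24.1% of all genes rose and 22.7% fell, and 38 under palbociclib, where 20.9% rose and 19.5% fell. With quantile normalization 41 members rose in the combination, where 21.7% of all genes rose and 27.2% fell, and 37 under palbociclib, where 19.2% rose and 23.1% fell. No member fell with either scaling. The median of the members lay 1.24 above that of all genes in the combination as deposited, 1.26 with median-ratio scaling and 1.25 with quantile normalization. Median-ratio scaling divides all genes of a library by the same factor, so this difference could hardly change with it. Over all genes, rises made up 29.8% of the calls in the combination as deposited, 51.5% with median-ratio scaling and 44.3% with quantile normalization. Under palbociclib these shares were 32.8%, 51.7% and 45.4%. Without palbociclib replicate 2, 35 of the 37 rises under palbociclib were still past the threshold, the exceptions being NPC2 and LAMP2.

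Together the 47 genes made up 4065 and 4102 TPM in the DMSO libraries and 4126 and 4274 TPM under TCP. Under palbociclib their sum was 9939 and 11253 TPM, and in the combination 11471 and 12358 TPM. All 4 libraries with palbociclib lay above all 4 without it. Expressed as a share of all TPM, this was 0.407% in the lowest library and 1.24% in the highest. Most of the increase lay in the proteases, which summed to 1066 and 1163 TPM in DMSO and 3535 and 4021 TPM in the combination, in progranulin and in the lipid hydrolases with their activators. The cholesterol transfer proteins summed to 131 and 112 TPM in DMSO and 151 and 144 TPM in the combination.

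**Figure D2:**
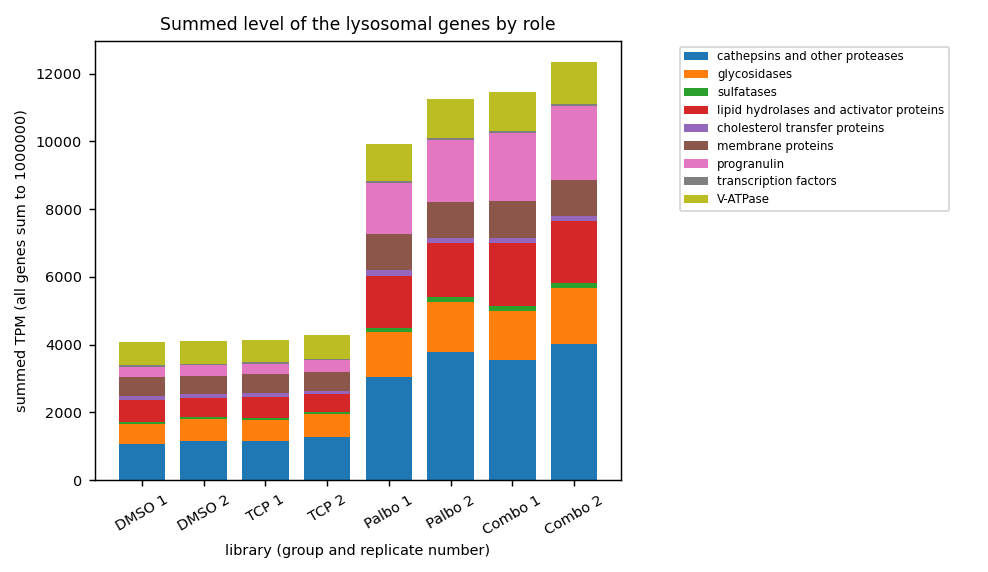
Stacked bars give the summed TPM of the members by role in each library. The 4 bars with palbociclib reach 9939 to 12358 TPM, and the 4 without it 4065 to 4274 TPM.

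Among the proteases, all 9 tested members rose in the combination, where 15.9% of all genes rose. Under palbociclib 7 rose, where 14.8% of all genes did. CTSA (cathepsin A, chr20:44518783-44527588 on GRCh37, plus strand), a carboxypeptidase that also protects the galactosidase and sialidase it binds, was at 108 and 118 TPM in DMSO, 107 and 136 TPM under TCP, 577 and 731 TPM under palbociclib and 505 and 623 TPM in the combination. The log2 fold change was 2.51 ± 0.17 (SE, n = 2 libraries per group, adjusted p = 0.000117 in limma) under palbociclib and 2.30 ± 0.17 (adjusted p = 8.38e-05) in the combination. Without palbociclib replicate 2 the change under palbociclib was 2.34. Both palbociclib-containing groups lay above all 4 libraries without it and overlapped each other. Its exons overlap those of NEURL2 and PLTP on the other strand, and the strand setting of the counting is not stated.

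CTSD (cathepsin D, chr11:1773982-1785803, minus strand), the main aspartic protease of lysosomes, followed the same pattern at a higher level. It was at 225 and 236 TPM in DMSO, 188 and 206 TPM under TCP, 1049 and 1412 TPM under palbociclib and 1008 and 1241 TPM in the combination. The log2 fold change was 2.40 ± 0.16 under palbociclib (adjusted p = 0.000117 in limma) and 2.27 ± 0.16 in the combination (adjusted p = 7.1e-05). The palbociclib and combination libraries again overlapped, and without palbociclib replicate 2 the change under palbociclib was 2.18. CTSD exons also overlap other annotated transcripts on both strands.

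CTSB (cathepsin B, chr8:11700033-11727042), a cysteine protease with both endopeptidase and exopeptidase activity, had a separate level in each group. It was at 114 and 106 TPM in DMSO, 168 and 142 TPM under TCP, 241 and 270.0 TPM under palbociclib and 539 and 527 TPM in the combination. No 2 of the 4 groups overlapped. The log2 fold change against DMSO was 1.21 ± 0.10 under palbociclib (adjusted p = 0.000258 in limma) and 2.27 ± 0.10 in the combination (adjusted p = 2.15e-05), while that under TCP was 0.49 (95% interval 0.25 to 0.73, adjusted p = 0.144). CTSZ (cathepsin Z, a carboxypeptidase) had the same order of groups, at 185 and 217 TPM in DMSO, 263 and 338 TPM under TCP, 406 and 428 TPM under palbociclib and 687 and 747 TPM in the combination. CTSZ rose by 1.06 ± 0.13 log2 units under palbociclib and by 1.83 ± 0.13 in the combination (adjusted p = 0.00112 and 8.82e-05). Its change under TCP was 0.57 and did not pass in limma (adjusted p = 0.201). CTSZ overlaps exons of NELFCD on the other strand.

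CTSH and CTSS did not follow palbociclib. CTSH (cathepsin H, an aminopeptidase) was at 1.88 and 2.19 TPM in DMSO, 3.62 and 3.89 TPM under TCP, 1.80 and 2.95 TPM under palbociclib and 9.82 and 13.5 TPM in the combination. The combination libraries were the highest, and the palbociclib and DMSO libraries overlapped. Its log2 fold change was 2.05 ± 0.21 in the combination (adjusted p = 0.000331 in limma) and 0.13 under palbociclib (95% interval -0.37 to 0.64, adjusted p = 0.641), or -0.11 without palbociclib replicate 2. CTSS (cathepsin S, a protease of antigen-presenting cells that stays active at neutral pH) was at 55.6 and 48.7 TPM in DMSO, 69.5 and 54.8 TPM under TCP, 43.9 and 37.5 TPM under palbociclib and 120.1 and 95.4 TPM in the combination. Both palbociclib libraries were below both DMSO libraries, and both combination libraries were above all others. The log2 fold change of CTSS was 1.03 ± 0.16 in the combination (adjusted p = 0.00189) and -0.35 under palbociclib (adjusted p = 0.117). With the replicate number as a block, that under palbociclib passed as a fall (adjusted p = 0.00514), where 37.1% of all genes fell.

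The other tested proteases had smaller changes in the combination than those above. TPP1, the tripeptidyl peptidase that is lost in a form of neuronal ceroid lipofuscinosis, had the highest mean of all members in DMSO, 354 TPM, and 724 TPM under palbociclib and 653 TPM in the combination (log2 fold changes 1.02 and 0.88). Without palbociclib replicate 2 its change under palbociclib was 0.85 (adjusted p = 0.0117 in limma). CTSC, which activates granule serine proteases, had the smallest rise of the proteases in the combination, at 0.30 on the log2 scale (adjusted p = 0.0114). CTSK, a collagen-degrading protease that fibroblasts also express, was at 1.81 and 1.85 TPM in DMSO, 4.21 and 6.02 TPM under palbociclib and 3.49 and 4.59 TPM in the combination. Replicate 2 was higher than replicate 1 in 35 of the 46 members under palbociclib and in 33 in the combination, with CTSK in both counts. In DMSO this held for 21 members and under TCP for 23. The palbociclib library with the high stromal markers was also the highest for CTSK. Without that library its log2 fold change under palbociclib was 0.88 instead of 1.09 (adjusted p = 0.0313 and 0.00447).

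Of the 11 glycosidases, which remove sugars from glycans and glycolipids, 10 rose under palbociclib, where 14.8% of all genes rose. In the combination 9 rose, where 15.9% of all genes did. FUCA1 (alpha-L-fucosidase 1, chr1:24171567-24194780, minus strand), which removes fucose, had the largest fold change of all members. It was at 12.9 and 11.1 TPM in DMSO, 12.8 and 13.4 TPM under TCP, 104 and 107 TPM under palbociclib and 171 and 167 TPM in the combination. The DMSO and TCP libraries were alike, the palbociclib libraries lay far above them, and the combination libraries lay higher still. The ratio of the group means was 8.8 under palbociclib and 14.1 in the combination, and the log2 fold changes were 3.04 ± 0.09 (adjusted p = 1.04e-05 in limma) and 3.71 ± 0.09 (adjusted p = 3.4e-06). FUCA1 has 1 annotated pseudogene, with which it may exchange reads.

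GAA, the acid alpha-glucosidase that degrades glycogen, was at 36.1 and 33.1 TPM in DMSO, 42.6 and 40.5 TPM under TCP, 113 and 138 TPM under palbociclib and 141 and 162 TPM in the combination. GAA rose by 1.82 ± 0.12 log2 units under palbociclib (adjusted p = 0.000117 in limma) and 2.10 ± 0.12 in the combination (adjusted p = 3.88e-05). MAN2B1, the major lysosomal alpha-mannosidase, was at 131 and 150.1 TPM in DMSO, 164 and 197 TPM under TCP, 351 and 434 TPM under palbociclib and 492 and 597 TPM in the combination. The change of MAN2B1 was 1.47 ± 0.15 under palbociclib and 1.94 ± 0.15 in the combination (adjusted p = 0.000542 and 0.000117). For both genes the groups stood in the order DMSO, TCP, palbociclib, combination with no overlap. Neither passed between DMSO and TCP (adjusted p = 0.621 for GAA and 0.59 for MAN2B1), where 12.4% of all genes lay above without overlap. Between palbociclib and the combination neither passed (adjusted p = 0.3 and 0.172), where 16.6% of all genes lay above. HEXA, GLA, GLB1, IDUA, MANBA and NEU1, which act on gangliosides, other glycolipids and glycan chains, all rose under both treatments, with log2 fold changes from 0.82 (GLB1) to 1.22 (GLA) under palbociclib and from 0.47 (HEXA) to 1.32 (IDUA) in the combination. On the other strand, exons of RPL36A overlap those of GLA, and exons of SLC26A1 overlap those of IDUA. NAGLU, which acts on heparan sulfate, stayed between 16.7 and 20.2 TPM in all 8 libraries and did not pass in any comparison with DMSO. GUSB, beta-glucuronidase, rose under palbociclib with a log2 fold change of 0.56 (adjusted p = 0.00475) and was at 0.23 in the combination (adjusted p = 0.0986, and 0.0115 with the replicate block, where 18.6% of all genes rose). GUSB has 18 annotated pseudogenes, more than any other member.

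All 3 sulfatases rose under palbociclib and in the combination, where 14.8% and 15.9% of all genes rose. ARSB, which removes sulfate from dermatan sulfate, was at 19.8 and 22.5 TPM in DMSO, 19.8 and 23.4 TPM under TCP, 41.4 and 43.7 TPM under palbociclib and 52.3 and 56.8 TPM in the combination. ARSA, which hydrolyses sulfatide, was at 26.1 and 26.4 TPM in DMSO, 24.9 and 30.3 TPM under TCP, 65.1 and 74.5 TPM under palbociclib and 62.3 and 71.1 TPM in the combination. In both genes DMSO and TCP overlapped. IDS, the iduronate sulfatase, was at 9.92 and 10.1 TPM in DMSO and at 21.3 and 25.9 TPM in the combination, a log2 fold change of 1.15. The log2 fold changes in the combination were 1.33 ± 0.11 for ARSB and 1.31 ± 0.12 for ARSA (adjusted p = 0.000145 and 0.000217 in limma).

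Among the 6 lipid hydrolases and activator proteins, 5 rose under palbociclib and 5 in the combination, where 14.8% and 15.9% of all genes rose. PSAP (prosaposin, chr10:73576055-73611008, minus strand), the precursor of the saposins that present sphingolipids to their hydrolases, was at 151 and 124 TPM in DMSO, 179 and 146 TPM under TCP, 776 and 792 TPM under palbociclib and 1126 and 1076 TPM in the combination. PSAP rose by 2.51 ± 0.12 log2 units under palbociclib (adjusted p = 4.86e-05 in limma) and 3.0 ± 0.12 in the combination (adjusted p = 1.78e-05), the largest in the combination after FUCA1. Neither treated group overlapped DMSO or the other. GM2A, the activator that lifts ganglioside GM2 to its hexosaminidase, was at 72.3 and 70.8 TPM in DMSO, 68.8 TPM in both TCP libraries, 197 and 234 TPM under palbociclib and 199.7 and 225 TPM in the combination. Palbociclib and the combination overlapped for GM2A, with log2 fold changes of 1.57 and 1.55.

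SMPD1, the acid sphingomyelinase, was at 8.36 and 10.1 TPM in DMSO, 7.92 and 8.98 TPM under TCP, 17.6 and 28.2 TPM under palbociclib and 22.1 and 33.0 TPM in the combination. Its replicates differed more than those of most members, and the log2 fold change was 1.20 ± 0.25 under palbociclib and 1.46 ± 0.25 in the combination (adjusted p = 0.00867 and 0.00294 in limma). Without palbociclib replicate 2 the change of SMPD1 under palbociclib was 0.87 (adjusted p = 0.0494). ASAH1, the acid ceramidase, rose by a like amount in both treatments (1.28 and 1.27), and PPT1, a thioesterase that removes palmitate from proteins, by 0.47 under palbociclib and 0.21 in the combination (adjusted p = 0.0258). LIPA, the acid lipase that splits cholesteryl esters, did not pass in either treatment, with 123 and 104 TPM in DMSO and 141 and 126 TPM in the combination, but passed in the combination with the replicate block (adjusted p = 0.0309) and with median-ratio scaling (adjusted p = 0.0144). The 2 proteins that carry cholesterol out of lysosomes had a median log2 fold change of 0.23 under palbociclib and 0.20 in the combination. For the 6 lipid hydrolases and activators the medians were 1.24 and 1.36, although NPC2 changed more than PPT1 and LIPA. NPC2, the soluble carrier, was at 107 and 90.2 TPM in DMSO, 97.7 and 71.1 TPM under TCP, 147 and 133 TPM under palbociclib and 127 and 119 TPM in the combination. It rose under palbociclib (log2 fold change 0.50, adjusted p = 0.0367, and 0.57 with adjusted p = 0.0847 without palbociclib replicate 2), while in the combination the change was 0.33 (adjusted p = 0.121, and 0.0226 with the replicate block). NPC1, its membrane partner, was between 18.1 and 25.6 TPM in all 8 libraries with overlapping groups and log2 fold changes of -0.03 under palbociclib and 0.07 in the combination.

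Of the 6 membrane proteins, 4 rose under palbociclib and 3 in the combination, where 14.8% and 15.9% of all genes rose. LAMP1 (chr13:113951554-113977987, plus strand), an abundant glycoprotein of the limiting membrane, was at 194 and 197 TPM in DMSO, 199.8 and 211 TPM under TCP, 485 and 498 TPM under palbociclib and 562 and 537 TPM in the combination. LAMP1 rose by 1.33 ± 0.07 log2 units under palbociclib and by 1.49 ± 0.07 in the combination (adjusted p = 4.75e-05 and 2.14e-05 in limma). Its relative LAMP2, which also acts in chaperone-mediated autophagy, was at 134 and 123 TPM in DMSO, 167 and 159 TPM under palbociclib and 137 and 130.2 TPM in the combination. LAMP2 thus passed under palbociclib (log2 fold change 0.34, adjusted p = 0.026), and the change was 0.38 without palbociclib replicate 2, where the call was lost. LAMP2 did not pass in the combination (0.06, adjusted p = 0.642), although it passed there with median-ratio scaling (0.30, adjusted p = 0.0233).

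MCOLN1, a calcium channel of the lysosomal membrane, was at 9.22 and 10.6 TPM in DMSO, 9.09 and 12.0 TPM under TCP, 17.2 and 19.0 TPM under palbociclib and 22.3 and 24.4 TPM in the combination. The tetraspanin CD63, which marks late endosomes and exosomes, was at 174 and 161 TPM in DMSO, 172 and 192 TPM under TCP, 346 and 348 TPM under palbociclib and 324 and 329.6 TPM in the combination. For both, DMSO and TCP overlapped and the treated groups lay above them, with log2 fold changes in the combination of 1.16 ± 0.15 and 0.96 ± 0.08 (adjusted p = 0.000718 and 0.000124 in limma). Exons of MCOLN1 overlap those of PNPLA6 on the same strand. SCARB2, the receptor that brings glucocerebrosidase to lysosomes, and CLN3, a membrane protein lost in juvenile neuronal ceroid lipofuscinosis, passed in neither treatment, although CLN3 passed in the combination with median-ratio scaling (adjusted p = 0.0211).

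GRN (progranulin, chr17:42422614-42430474, plus strand), a secreted protein that is taken up and cleaved into granulins in lysosomes, became the most abundant of the members. It was at 306 and 322 TPM in DMSO, 304 and 351 TPM under TCP, 1517 and 1819.7 TPM under palbociclib and 2001 and 2196 TPM in the combination. The 4 libraries with palbociclib lay above the others, and the combination libraries above those of palbociclib alone. GRN rose by 2.40 ± 0.11 log2 units under palbociclib and by 2.73 ± 0.11 in the combination (adjusted p = 4.75e-05 and 1.85e-05 in limma), and 2.27 under palbociclib without its replicate 2.

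**Figure D3:**
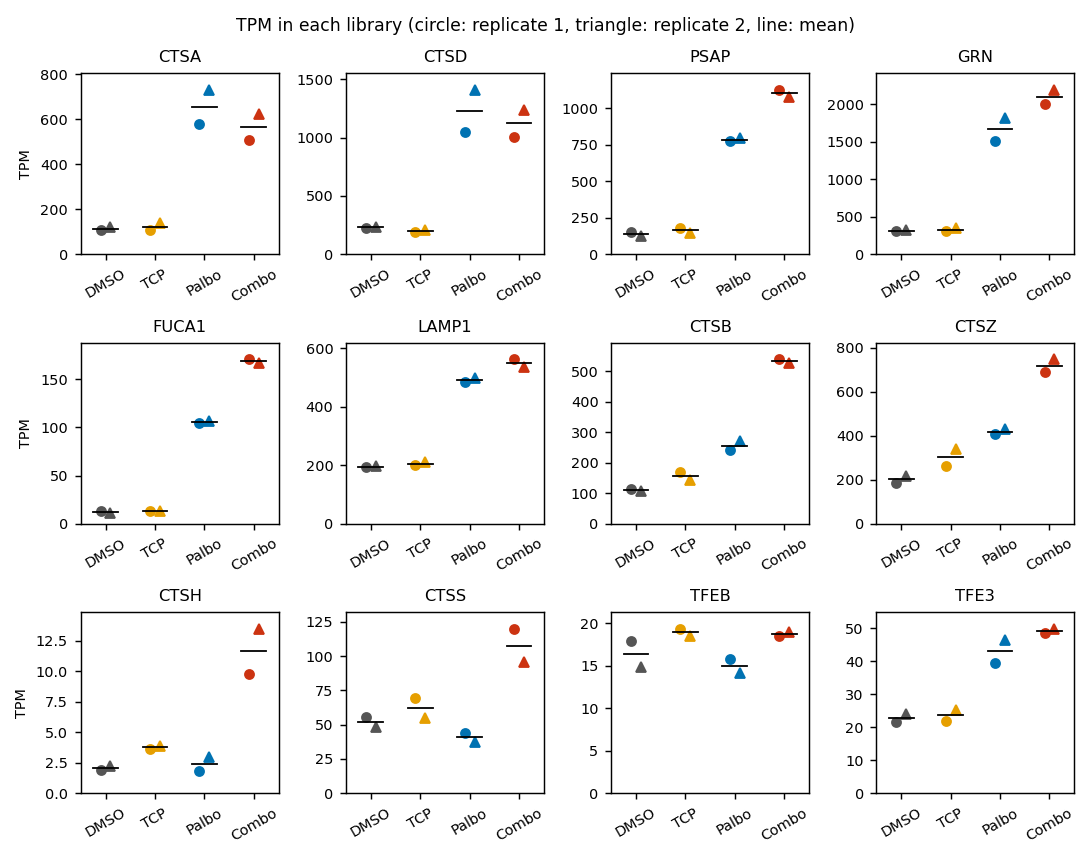
Panels give TPM on a linear axis in each library for 12 members (circle, replicate 1; triangle, replicate 2; line, group mean of 2 libraries). CTSA and CTSD reach like levels under palbociclib and in the combination, FUCA1, PSAP, CTSB and CTSZ are highest in the combination, CTSH and CTSS are high there only, and TFEB stays between 14.2 and 19.4 TPM in all libraries.

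The transcripts of the transcription factors differed. TFE3 (chrX:48886237-48900936) was at 21.4 and 23.9 TPM in DMSO, 21.9 and 25.3 TPM under TCP, 39.5 and 46.5 TPM under palbociclib and 48.5 and 49.8 TPM in the combination. TFE3 rose by 0.89 ± 0.12 log2 units under palbociclib and by 1.09 ± 0.12 in the combination (adjusted p = 0.00123 and 0.000363 in limma). TFEB (chr6:41651716-41703997) was at 17.9 and 14.9 TPM in DMSO, 19.4 and 18.5 TPM under TCP, 15.8 and 14.2 TPM under palbociclib and 18.5 and 19.0 TPM in the combination. The call for TFEB in the combination depended on the scaling, since its change was 0.19 as deposited (adjusted p = 0.199), 0.42 with median-ratio scaling (adjusted p = 0.0163) and 0.41 with quantile normalization (adjusted p = 0.0175). Under palbociclib the change of TFEB was -0.12 as deposited and 0.05 with median-ratio scaling, neither past the threshold. The location of the proteins, on which the activity of these factors depends, was not measured.

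Among the 6 V-ATPase members, 5 rose under palbociclib and 5 in the combination, where 14.8% and 15.9% of all genes rose. ATP6V0D1, a subunit of the membrane sector, was at 86.2 and 106 TPM in DMSO, 82.7 and 112 TPM under TCP, 171 and 174 TPM under palbociclib and 188 and 202 TPM in the combination. ATP6V1A, the catalytic subunit that hydrolyses ATP, was at 60.5 and 61.3 TPM in DMSO, 59.3 and 59.0 TPM under TCP, 104 and 101 TPM under palbociclib and 123 and 124 TPM in the combination. ATP6AP1, an accessory subunit needed for assembly, was at 139 and 137 TPM in DMSO, 137 and 143 TPM under TCP, 271 and 295 TPM under palbociclib and 265 and 280.3 TPM in the combination. The replicates of ATP6V1A lay within a few TPM of each other in every group. The log2 fold changes in the combination were 1.02 ± 0.16 for ATP6V0D1, 1.01 ± 0.06 for ATP6V1A and 0.98 ± 0.07 for ATP6AP1 (adjusted p = 0.00166, 5.73e-05 and 9.4e-05 in limma). ATP6V0C, which forms the proton-carrying ring, rose by 0.78 and ATP6V1B2, the other ATP-binding subunit, by 0.61 in the combination. ATP6V1H, a regulatory subunit of the cytosolic sector, did not pass under palbociclib or in the combination (log2 fold change 0.13, adjusted p = 0.268), but passed in the combination with median-ratio scaling (0.37, adjusted p = 0.00997).

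The 13 remaining V-ATPase genes of a wider list were examined beside them. In the combination 8 of the 11 tested rose and 1 fell, where 15.9% of all genes rose and 37.6% fell. Their median was 0.55 on the log2 scale. ATP6V0A1 and ATP6AP2, a membrane-sector subunit and a second accessory protein, were the largest rises at 1.14 ± 0.13 and 0.96 ± 0.06 (adjusted p = 0.000525 and 6.14e-05 in limma). ATP6V0A2, another isoform of the same membrane subunit, fell, with a log2 fold change of -0.34 ± 0.09 (adjusted p = 0.0169), from 21.6 and 19.9 TPM in DMSO to 16.0 and 16.2 TPM. With median-ratio scaling that fall did not pass (-0.11, adjusted p = 0.307).

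**Figure D4:**
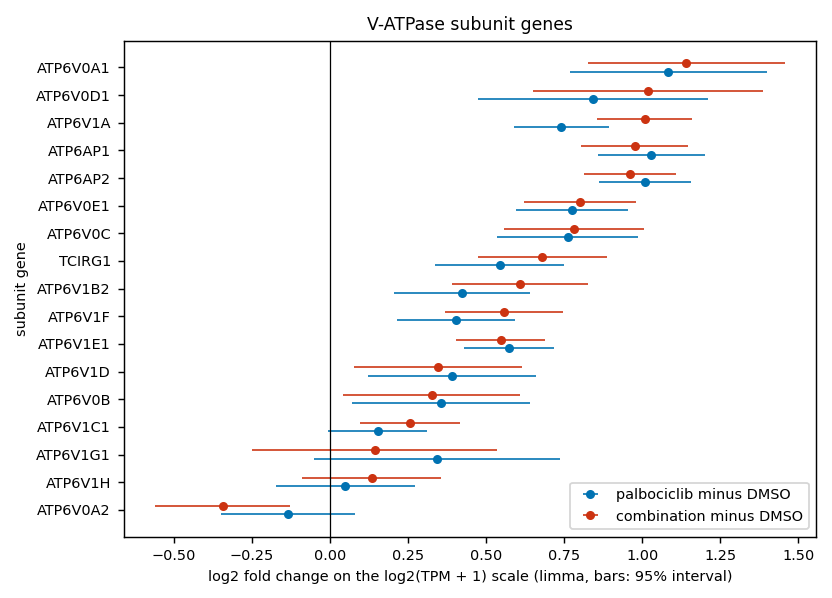
Points give the log2 fold change against DMSO on the log2(TPM + 1) scale for the 17 V-ATPase genes tested, with bars for the 95% interval from limma (2 libraries per group). Most genes lie above 0 under palbociclib (blue) and in the combination (red), from ATP6V0A1 at 1.14 to ATP6V0A2 at -0.34 in the combination.

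Lists of other lysosomal genes were examined in the combination, where 15.9% of all genes rose, 37.6% fell and their median was -0.22. Of 24 other soluble hydrolases and activators tested, 17 rose and 1 fell in the combination, with a median of 0.88. IFI30, a thiol reductase that unfolds antigens in lysosomes, went from 73.1 and 60.9 TPM in DMSO to 149 and 149.6 TPM under TCP, 209.6 and 208 TPM under palbociclib and 817 and 796 TPM in the combination, a log2 fold change of 3.58 ± 0.09 in the last (adjusted p = 3.4e-06 in limma). DNASE2, the acid DNase, had a log2 fold change of 2.91 ± 0.60 (adjusted p = 0.00588), and AGA, which cleaves asparagine-linked sugars, fell by 0.71 (adjusted p = 0.0361, and 0.108 with median-ratio scaling). Of 21 other membrane proteins tested, 12 rose and 2 fell, with a median of 0.50. CD68, a macrophage lysosomal glycoprotein, reached 2.42 and SLC11A1, a phagosomal metal transporter, 2.07, while LAPTM4B fell by 1.11 and TMEM192 by 0.40. The fall of LAPTM4B also passed with median-ratio scaling (adjusted p = 0.000352), whereas that of TMEM192 did not (adjusted p = 0.135).

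Of 10 genes of mannose 6-phosphate tagging and lysosomal sorting, 7 rose in the combination and none fell, led by GNPTG at 1.01 and GNPTAB at 0.91, subunits of the enzyme that makes the tag. Of 17 autophagy genes 11 rose and none fell, with GABARAPL1 at 1.51 and WIPI1 at 1.37, which act in the formation of autophagosomes. Of 13 tested genes that encode TFEB relatives and the mTORC1 scaffold on lysosomes, 3 rose and 1 fell, with a median of -0.05. This was near the share of all genes that rose, 15.9%, while 37.6% fell. The leading rises there were TFEC, a relative of TFEB (0.81), and LAMTOR1, the anchor of the scaffold (0.63). RRAGA, a GTPase that recruits mTORC1, fell by 0.33 (adjusted p = 0.00673, and 0.352 with median-ratio scaling). With median-ratio scaling 4 genes of this list rose and 0 fell, with a median of 0.18, where 24.1% of all genes rose and 22.7% fell.

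The combination was then compared with palbociclib alone, to ask what TCP added. Of the 46 members, 41 differed by less than 0.5 log2 units between them, with quartiles of -0.11 and 0.31. Small differences were also common over all genes tested, where the quartiles were -0.21 and 0.06. In limma 5 members were higher in the combination, where 2.05% of all genes were, and none was lower, where 1.44% of all genes were. They were CTSH (1.91 ± 0.21, adjusted p = 0.00813), CTSS (1.38 ± 0.16, adjusted p = 0.00923), CTSB (1.06 ± 0.10, adjusted p = 0.00558), CTSZ (0.78 ± 0.13, adjusted p = 0.0313) and FUCA1 (0.67 ± 0.09, adjusted p = 0.0131). The first 3 were also DEG, where 0.459% of all genes were DEG and higher. Among these 5 genes, 4 are cathepsins, and CTSH and CTSS are the 2 that had not risen under palbociclib alone. Both combination libraries lay above both palbociclib libraries in all 5, as they did in 24 of the 46 members and in 16.6% of all genes, while 9 members and 37.2% of all genes lay below. Without palbociclib replicate 2, CTSB and CTSH passed, with log2 fold changes of 1.14 and 2.16, whereas CTSS, CTSZ and FUCA1 did not (adjusted p = 0.0673, 0.12 and 0.0808). None of the 5 passed when palbociclib replicate 1, combination replicate 1 or combination replicate 2 was left out. CTSA, with -0.21 (95% interval -0.60 to 0.18), and CTSD, with -0.12 (95% interval -0.49 to 0.25), did not pass in this comparison.

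With the replicate number as a block, 10 members rose and 3 fell between palbociclib and the combination, where 3.79% and 5.08% of all genes did. The added rises were MAN2B1 at 0.47, PSAP at 0.49, ARSB at 0.35, GRN at 0.34 and ATP6V1A at 0.27. The falls were GUSB at -0.33, LAMP2 at -0.28 and PPT1 at -0.26. In the same model CTSZ (0.57, adjusted p = 0.0328 in limma) and MAN2B1 (0.35, adjusted p = 0.044) passed for TCP against DMSO, where 0.848% of all genes rose.

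Against TCP alone, 38 members rose in the combination and none fell, where 16.5% of all genes rose and 33.8% fell. The median log2 fold change was 1.03, and 25 members were DEG and higher, where 5.46% of all genes were. Whether the effect of both molecules departed from the sum of the single effects was tested as an interaction. In limma no member passed, and no gene of the 14151 did (0.0%), while 5 members had an unadjusted p below 0.05, as did 6.39% of all genes. These were CTSS (departure 1.14, 95% interval 0.60 to 1.68, adjusted p = 0.331), CTSH (1.26, adjusted p = 0.457), FUCA1 (0.55, adjusted p = 0.412), CTSB (0.57, adjusted p = 0.486) and ATP6V1A (0.31, adjusted p = 0.564), all above the sum. The departure was above 0 in 32 of 46 members and in 6270 of the 14151 genes, with a median of 0.10 where that of all genes was -0.03. It was below 0 in 14 members, lowest in CTSK (-0.65, adjusted p = 0.794 in limma).

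**Figure D5:**
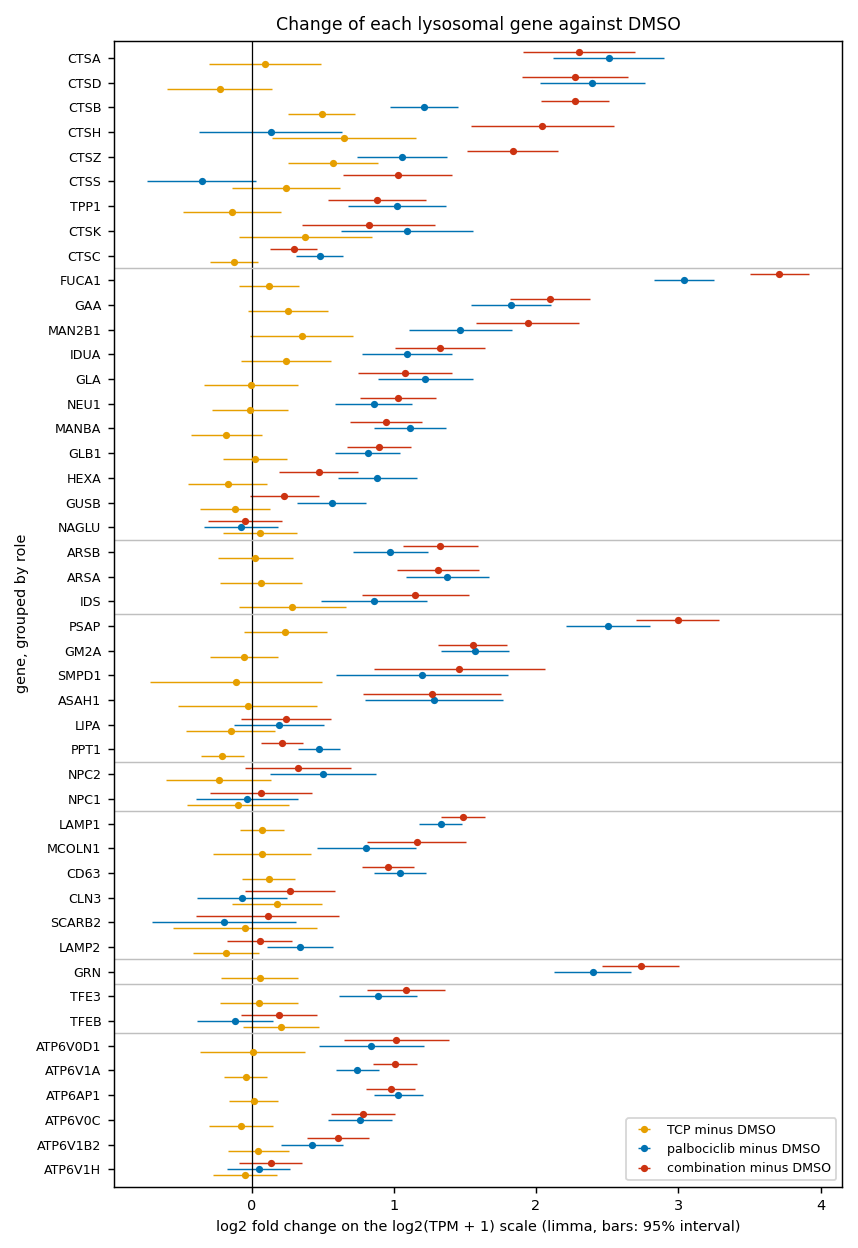
Points give the log2 fold change against DMSO on the log2(TPM + 1) scale for the 46 tested members, grouped by role, under TCP (orange), palbociclib (blue) and the combination (red), with bars for the 95% interval from limma (2 libraries per group). TCP points lie near 0, with CTSH highest at 0.65, and blue and red points lie close together in most rows, apart from CTSB, CTSH, CTSZ, CTSS and FUCA1.

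As counts of libraries, both combination libraries lay above both DMSO libraries in 43 of 46 members, where 26.0% of all genes did so. Under palbociclib this held for 38 members, where 26.5% of all genes did so, and CTSS had both libraries below, where 49.7% of all genes did. Under TCP 11 members lay above and 7 below, where 12.4% of all genes lay above and 22.3% below.

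Because TFEB and TFE3 bind the palindromic E-box, the promoters of the members were searched for it. Windows from 250 bases before to 50 bases after the annotated start were taken from RefSeq (GRCh38.p14), the first one listed for each symbol, and 33 of the 47 members had one. The 8-letter forms GTCACGTG and TCACGTGA, read on both strands and able to overlap each other, were found in 7 members (21.2%) as either form, and in 2.66% of 27305 promoters. The 7 were CTSA, CTSD, GAA, LAMP1, MCOLN1, ATP6V0D1 and CLN3. The 6-letter core CACGTG that both contain was found in 9 members (27.3%) and 7.43% of promoters, and TCATGTGA, a related motif searched in the same way, in 4 members (12.1%) and 1.01%. Many lysosomal genes are known to carry the E-box, so its higher share among the members is no new result. The shares over all promoters were not limited to the genes tested, and PSAP and CTSB were among the members without a window. A match is a description of the letters and not evidence of binding.

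Stretches of the promoters of the 4 members with the largest change in the combination among these 7 are shown, located on GRCh37 by exact match, 5′ to 3′ on the strand of the gene, with the 8-letter motifs in capitals. The CTSA stretch is chr20:44519928-44519957 (plus strand, inside annotated CTSA transcripts), that of CTSD is chr11:1785187-1785216 (minus strand, in annotated exons of CTSD and AC068580.1), those of GAA are chr17:78075292-78075321 and chr17:78075337-78075366 (plus strand, the latter in the annotated 5′ part of GAA), and that of LAMP1 is chr13:113951304-113951553 (plus strand, in no annotated exon).
CTSA: ctGTCACGTGgcgccggagtTCACGTGACt
CTSD: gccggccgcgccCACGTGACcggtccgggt
GAA, first stretch: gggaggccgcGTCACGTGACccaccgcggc
GAA, second stretch: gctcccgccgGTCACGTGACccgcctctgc
LAMP1: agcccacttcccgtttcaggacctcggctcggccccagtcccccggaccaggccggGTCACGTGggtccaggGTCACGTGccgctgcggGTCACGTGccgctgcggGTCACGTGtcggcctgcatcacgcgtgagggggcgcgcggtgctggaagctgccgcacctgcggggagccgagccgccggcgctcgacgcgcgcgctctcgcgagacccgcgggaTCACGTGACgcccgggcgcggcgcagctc
The LAMP1 stretch holds 5 copies of CACGTG of the 6 in its window, the most of any member. CTSA and GAA hold 2 copies each and CTSD holds 1.

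The members with an 8-letter E-box had a median log2 fold change of 1.49 in the combination, with a range from 0.27 for CLN3 to 2.30 for CTSA. The 26 members with a window but without it had a median of 1.0, with a range from 0.07 for NPC1 to 3.71 for FUCA1, so the ranges overlapped and the largest change was in a member without the motif. Under palbociclib the medians were 1.33 and 0.88. These are descriptions, with no test of the difference.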

How the data were processed

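RNA was sequenced from 8 MV4-11 libraries, 2 in each of 4 groups taken from the labels. The authors mapped reads to hg19 with Subread 1.6.4, counted them per gene with featureCounts and deposited TPM. The gene annotation and the strand setting of the counting are not given in the sources used here, so overlapping genes and pseudogenes may have exchanged reads. Such overlaps and pseudogenes are named above for some members only. Others have them too, such as LIPA (IFIT2 and IFIT3 on the other strand) and ATP6V0C (4 pseudogenes). TPM keep no depth, so intervals based on read counts were not computed. Within a library the values sum to the same total, so the rise of abundant genes such as LYZ lowers the TPM of the others.

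From the deposited TPM, log2(TPM + 1) was tested with limma 3.58.1 in R 4.3.3, in one model with 1 coefficient per group, 4 residual degrees of freedom and a mean-variance trend, over the 14151 genes that reached 1 TPM in 2 or more libraries, with Benjamini-Hochberg adjustment. Contrasts were each treatment against DMSO, the combination against either molecule alone, and the interaction (departure from the sum). The script was tested on simulated data with known changes.

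Members, gene lists and motifs were chosen with earlier results of these data known. Named members were TFEB, TFE3, the 3 with the largest change in the combination in each role (2 in roles of up to 3), and those that passed between palbociclib and the combination. The remaining members were named after their values were seen. From each other list the 2 largest rises and falls that passed were named.

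The groups share the replicate numbers 1 and 2. After subtracting group means, libraries with the same number correlated across genes at 0.169 to 0.491 in the 6 pairs of groups. The numbers were therefore used to pair libraries in the replicate block, 1 of the alternatives, although no label says what they share. The main model has no term for them. Alternatives were a pseudocount of 0.1, no filter, a minimum mean of 5 TPM, quantile normalization, median-ratio scaling, the replicate block, only the groups compared, no trend, the DEG threshold and each library left out. Coordinates are from a GENCODE annotation of GRCh37, and promoters are from RefSeq.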

Additional observations from a re-analysis of the deposited data

Results flagged for a closer look

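For CTSS, both palbociclib libraries (43.9 and 37.5 TPM) lay below both DMSO libraries (55.6 and 48.7 TPM), where 49.7% of all genes did so. Both combination libraries (120.1 and 95.4 TPM) lay above both TCP libraries (69.5 and 54.8 TPM), where 25.9% of all genes did so. The lower level under palbociclib alone did not pass in limma (-0.35, adjusted p = 0.117) except with the replicate block (adjusted p = 0.00514). A reversal of the effect of palbociclib by TCP was therefore not shown. Relative to the added single effects, the departure was 1.14 on the log2(TPM + 1) scale and did not pass in limma (adjusted p = 0.331, or 0.0873 once the replicate number was a block).

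For ATP6V1A, both TCP libraries (59.3 and 59.0 TPM) lay below both DMSO libraries (60.5 and 61.3 TPM), where 22.3% of all genes did so. Both combination libraries (123 and 124 TPM) lay above both palbociclib libraries (104 and 101 TPM), where 16.6% of all genes did so. The departure was 0.31 and did not pass in limma (adjusted p = 0.564, or 0.255 once the replicate number was a block), and the TCP effect on its own was -0.04.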

How the results depend on the processing

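No member changed direction past the threshold under any alternative. Counts of members past the threshold stayed within 34 to 38 of 46 under palbociclib, 33 to 43 in the combination and 35 to 41 for the combination against TCP, apart from the DEG threshold, which left 21, 25 and 25. The comparison of the combination with palbociclib was the least stable, with 5 members in the model as reported, 13 with the replicate block and 3 with the DEG threshold. Leaving out 1 library gave 0 to 5 there, with 0 without palbociclib replicate 1, 2 without palbociclib replicate 2 and 0 without either combination library. For TCP against DMSO, the replicate block gave 2 in place of 0. The interaction gave 0 under every alternative run. The block moved no other count by over 1.5 times. Fewer libraries leave fewer degrees of freedom, and the cause of the other differences was not tested. The depth is unknown, so no limit of detection can be given for LGMN.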
